A study of Mus musculus with 12 samples.

Results

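Mesothelium is the single layer of flat cells that lines the body cavities and covers the organs in them, visceral fat pads included. It derives from mesoderm but carries keratins like those of simple epithelia, together with the surface protein mesothelin and the transcription factor Wt1. In a perigonadal fat pad it forms the outer surface, whereas subcutaneous fat has none. The genes described here are 7 such markers, Krt7, Krt8, Krt18, Krt19, Msln, Upk3b and Wt1, of 8251 genes named on the array. They were chosen as known markers, with earlier results of these data in view, and every probe set annotated to exactly 1 of them was taken. That gave 9 probe sets, with 2 each for Krt18 and Krt19.

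RNA of perigonadal adipose tissue was measured on 12 Affymetrix arrays, 1 for each mouse. All mice were labelled female, 6 months old and fed ad libitum. The overexpressors carried a Glut4 transgene driven by the aP2 promoter on the FVB strain, and their controls were FVB littermates. The adipose Glut4 knockouts (Glut4-/- in fat) and their controls, which carried the aP2-Cre transgene, had a mixed C57B6, FVB and SV129 background. Each of the 4 groups held 3 arrays. The aP2 promoter, that of Fabp4, is active in fat cells and is also known to be active in macrophages, and the labels name fat as the tissue targeted in both models. Glut4, encoded by Slc2a4, is the glucose transporter that insulin brings to the surface of fat cells. Values are array intensities on a linear scale, and each mutant was read only against its own control, since the smallest intensity, which acts as a floor, was 21.9 in the overexpressor line and 22.27 in the knockout line.

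Several measurements of the whole series bear on the markers. The tested Slc2a4 probe set read 625, 1109.7 and 1042 in the overexpressors and 639, 583 and 1212 in their controls (log2 change 0.21, limma adjusted p = 0.93). Overexpressor 1 thus read like overexpressor controls 1 and 2, and overexpressor control 3 was the highest of the line, so the probe set goes against the labels of those arrays (overexpressor 1 and overexpressor control 3), which are named here as labelled. In the other line Slc2a4 was at 377.5, 365 and 363 in knockouts, against 416, 513.5 and 614 in controls (-0.43, limma adjusted p = 1), without a call. The labels name neither the part of the gene that was removed nor the origin of the transgene's sequence, so this probe set may read neither change. Fat markers were bright on all arrays, with group means of 6251 to 6581 for Adipoq, the adiponectin gene. Overexpressor control 1 stood apart, with the highest value of its line in 39.8% of all tested probe sets, and overexpressor 1 had the lowest in 48.4%. Xist, which is transcribed from the inactive X chromosome, read 86.5 on knockout control 3 against 293 to 560.4 on the other arrays of that line. The Y-linked genes Eif2s3y, Kdm5d and Uty were dim, between 21.9 and 80.0, on all 12 arrays. On knockout control 3 Kdm5d (80.0) and Uty (57.5) had their highest values of the 12 and Eif2s3y (22.8) its lowest, so its sex label was not settled by these genes. Without that array the knockout change of the markers had a median of -0.26, with 7 of 7 tested probe sets lower and none called.

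No mesothelial marker was called in either mutant. Of the 9 probe sets, 7 were bright enough over all 12 arrays to test, covering 6 genes. In the overexpressors limma called 0 of them, against 6 of 7454 tested probe sets (0.0805%). It called 0 in the knockouts, against 9 of 7454 (0.121%). For the difference between the effects of gain and loss it called 0, against 12 of 7454 (0.161%). A call means a Benjamini-Hochberg adjusted p under 0.05 over all 7454 probe sets, and changes are log2 ratios of intensity plus 36.92. None of the 7 had an unadjusted p under 0.05 in any of these comparisons, against 355 of 7454 for the overexpressors, 297 for the knockouts and 369 for the difference. The smallest unadjusted p of a marker was 0.0895, for Krt8 in the overexpressors. In such tissue samples fewer mesothelial cells and less RNA per cell cannot be told apart.

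**Figure D1:**
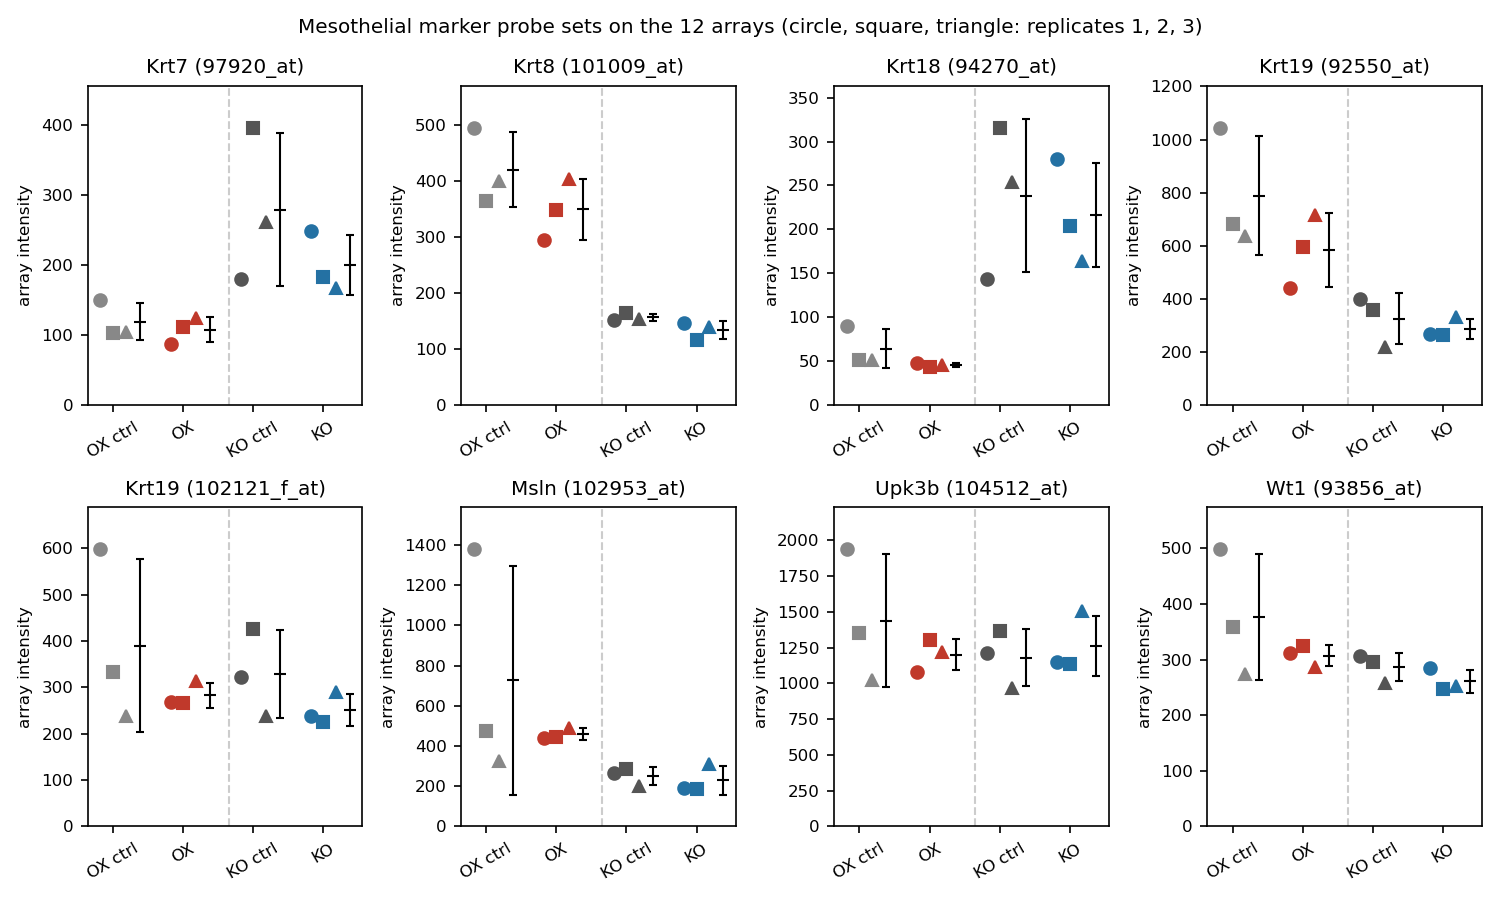
Array intensity (linear axis from 0) of the 8 marker probe sets above the floor on each of the 12 arrays, with circle, square and triangle for replicates 1, 2 and 3 and a bar for the mean ± SD of 3 arrays; OX is overexpressor, KO knockout and ctrl the control of that line. Overexpressor control 1, the grey circle at the left of each panel, is the highest array of its line in all 8 panels.

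The keratins were examined first. Keratins form filaments as pairs of a type II chain, here Krt7 or Krt8, and a type I chain, here Krt18 or Krt19, and Krt8 with Krt18 is the basic pair of simple epithelia. In RefSeq's annotation of GRCm38.p6, Krt8 and Krt18 are adjacent protein-coding genes on chromosome 15, Krt7 lies elsewhere on that chromosome, between Krt80 and Krt87, and Krt19 lies on chromosome 11 between Krt15 and Krt9. Promoter sequences were at hand for 4 of the 7 markers. Those of the 3 keratins on chromosome 15 are shown because these keratins were compared pair by pair over the arrays. Each holds the 150 bases before the gene's start, with GC boxes (GGGCGG on either strand) in capitals. Krt7 is at chr15:101412253-101412402 on the plus strand, Krt8 at chr15:102004343-102004492 on the minus strand and Krt18 at chr15:102028066-102028215 on the plus strand.
Krt7: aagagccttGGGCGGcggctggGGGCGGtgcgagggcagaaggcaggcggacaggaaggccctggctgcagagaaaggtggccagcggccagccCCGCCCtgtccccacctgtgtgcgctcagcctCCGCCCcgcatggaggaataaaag
Krt8: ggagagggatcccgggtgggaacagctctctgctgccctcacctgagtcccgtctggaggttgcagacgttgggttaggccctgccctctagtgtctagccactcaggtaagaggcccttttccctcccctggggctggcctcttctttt
Krt18: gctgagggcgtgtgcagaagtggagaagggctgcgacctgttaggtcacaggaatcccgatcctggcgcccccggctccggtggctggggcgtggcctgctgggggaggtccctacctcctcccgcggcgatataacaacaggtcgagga
The Krt7 window held 4 GC boxes, and the windows of Krt8, Krt18 and Upk3b held 0. Of 32851 windows of this length, 28.6% held at least 1. The letters TATAAA, searched on both strands, were in none of the 4 windows and in 7.6% of all windows. The E-box letters CANNTG, the same on both strands, occurred 1 time each in Krt7, Krt8 and Upk3b, 0 times in Krt18 and in 47.7% of all windows. The matches in these 4 windows did not overlap each other, and a match describes letters only.

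Krt7 read 87.5, 112 and 124 in the overexpressors and 149.7, 103 and 105 in their controls. The groups overlapped, and the log2 change was -0.11 (95% interval -0.59 to 0.38, limma adjusted p = 0.966), or -0.19 without overexpressor 3 and 0.03 without overexpressor control 1. In the knockouts it read 249, 183 and 167, and in their controls 180.4, 396 and 261. Knockout control 2 was the highest array by far, and 2 of the 3 knockouts lay within the range of the controls. The change was -0.37 (SE 0.22, 95% interval -0.86 to 0.11, limma adjusted p = 1), and -0.12 without knockout control 2 or -0.62 without knockout control 1.

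Krt8 read 296, 348 and 405 in the overexpressors and 496, 365 and 401 in their controls, with a change of -0.24 (SE 0.13, 95% interval -0.53 to 0.04, limma adjusted p = 0.913). It was -0.13 without overexpressor control 1 and -0.14 without overexpressor 1. In the knockout line Krt8 read 146.5, 116 and 139.7 in the knockouts and 152, 164 and 154 in the controls. All 3 knockouts lay below all 3 controls, at a mean of 134 ± 16.1 against 157 ± 6.13 (SD, n = 3 arrays each). Krt8 was the 1 marker of the 7 tested with that pattern, which 1.89% of all tested probe sets showed. The change of -0.18 (SE 0.13, 95% interval -0.47 to 0.10) was not called (limma adjusted p = 1), and it was -0.11 without knockout 2. The pooled SD of Krt8 within groups was 0.16 on the log2 scale, against a median of 0.18 over all tested probe sets.

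Krt18 was the marker without a test. Its brighter probe set had a mean of 140.8 over 12 arrays, under the limit of 156.7 below which the dimmest 40% were left out, and the other stayed between 21.9 and 22.3. On the brighter one the overexpressors read 47.2, 43.0 and 45.6 and their controls 89.8, 50.8 and 51.1, all near the floor. All 3 overexpressors lay below all 3 controls, a pattern that 6.48% of tested probe sets showed and that 0 of the 7 tested marker probe sets showed in this line. In a fit of all probe sets the change was -0.27 (SE 0.25, limma adjusted p = 0.958). In the knockout line Krt18 was above the floor, at 280.4, 204 and 164 in the knockouts and 144, 316 and 254 in the controls. The groups overlapped and the change was -0.09 (SE 0.25, limma adjusted p = 1). The limit applied to the mean over both lines, and the Krt18 group means of 216 and 238 in the knockout line were above it. Tested probe sets could lie under it in 1 line. Krt7 did so in the overexpressor line (group means of 108 and 119) and Krt8 in the knockouts (134).

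Krt19, a type I keratin that lacks most of the usual tail, has 2 tested probe sets. The brighter read 439, 595 and 716 in the overexpressors and 1045, 682 and 638 in their controls. Its change of -0.40 (SE 0.24, 95% interval -0.91 to 0.11, limma adjusted p = 0.913) was the lowest of the 7, and it ran from -0.56 without overexpressor 3 to -0.19 without overexpressor control 1. The other probe set, of a type whose probes can also match related sequences, read 267.5, 266.5 and 314 against 598, 332 and 238, a change of -0.33 (SE 0.26, limma adjusted p = 0.913), with 0.0 without overexpressor control 1 and -0.60 without overexpressor control 3. Both thus gave the same direction with all arrays.

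In the knockouts the brighter Krt19 probe set read 266, 262 and 330.4, against 399, 358.5 and 217 in controls (-0.13, SE 0.24, limma adjusted p = 1). Without knockout control 1 the sign turned, to 0.02. The other Krt19 probe set read 237, 226 and 290.0 against 323, 426 and 237 (-0.32, SE 0.26, limma adjusted p = 1), and its change was -0.13 without knockout control 2 and -0.51 without knockout control 3. The groups overlapped on both.

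Msln, which encodes the surface glycoprotein mesothelin, varied widely between arrays. It read 438, 444 and 491 in the overexpressors and 1379, 475 and 323 in their controls, so 1 control lay above and 1 below all 3 overexpressors. The means were 458 ± 29.1 and 726 ± 571 (SD, n = 3), and the change was -0.37 (SE 0.38, 95% interval -1.19 to 0.45, limma adjusted p = 0.928). Without overexpressor control 1 it turned to 0.20, and without overexpressor control 3 it was -0.79. The pooled SD of Msln within groups, 0.56 on the log2 scale, was above that of 98.9% of tested probe sets, and without this array it was 0.27, above 81.8%. With all arrays Msln had the largest such SD of the 7 tested probe sets and Krt8 the smallest, but without that array the largest was that of Krt7 (0.32) and the smallest that of Wt1 (0.13).

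In the knockout line Msln read 189, 188 and 311 in the knockouts and 264, 288 and 203 in the controls. Knockout 3 was the highest of the 6 arrays and the other knockouts were the lowest, and the change was -0.14 (SE 0.38, limma adjusted p = 1). It ranged from -0.34 without knockout 3 to -0.03 without knockout 2.

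Upk3b belongs to the uroplakins, membrane proteins first known from the bladder lining, and is used as a mesothelial marker. It read 1083, 1301 and 1221 in the overexpressors and 1939, 1352 and 1027 in their controls (-0.21, SE 0.21, 95% interval -0.66 to 0.24, limma adjusted p = 0.928), and the change was 0.02 without overexpressor control 1 and -0.42 without overexpressor control 3. In the knockouts it read 1146, 1133.5 and 1504, against 1211, 1364 and 968 in controls. This was the 1 tested probe set of the markers with a positive change there, 0.09 (SE 0.21, 95% interval -0.36 to 0.55, limma adjusted p = 1). Its sign turned without knockout 3 or knockout control 3, to -0.04 for each. Over all tested probe sets, knockout 3 was the highest array of its line in 37.4% and knockout control 3 the lowest in 42.9%.

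Wt1, a zinc finger transcription factor needed for the mesothelium and the urogenital organs, read 311, 324 and 286.5 in the overexpressors and 499, 359 and 274 in their controls. The change was -0.23 (SE 0.16, 95% interval -0.58 to 0.12, limma adjusted p = 0.913) and ran from -0.42 without overexpressor control 3 to -0.03 without overexpressor control 1. In the knockouts Wt1 read 284, 246 and 252, against 306, 295 and 259 in controls. Knockout 1 lay within the control range and the other knockouts just under it, with a change of -0.12 (SE 0.16, limma adjusted p = 1).

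**Figure D2:**
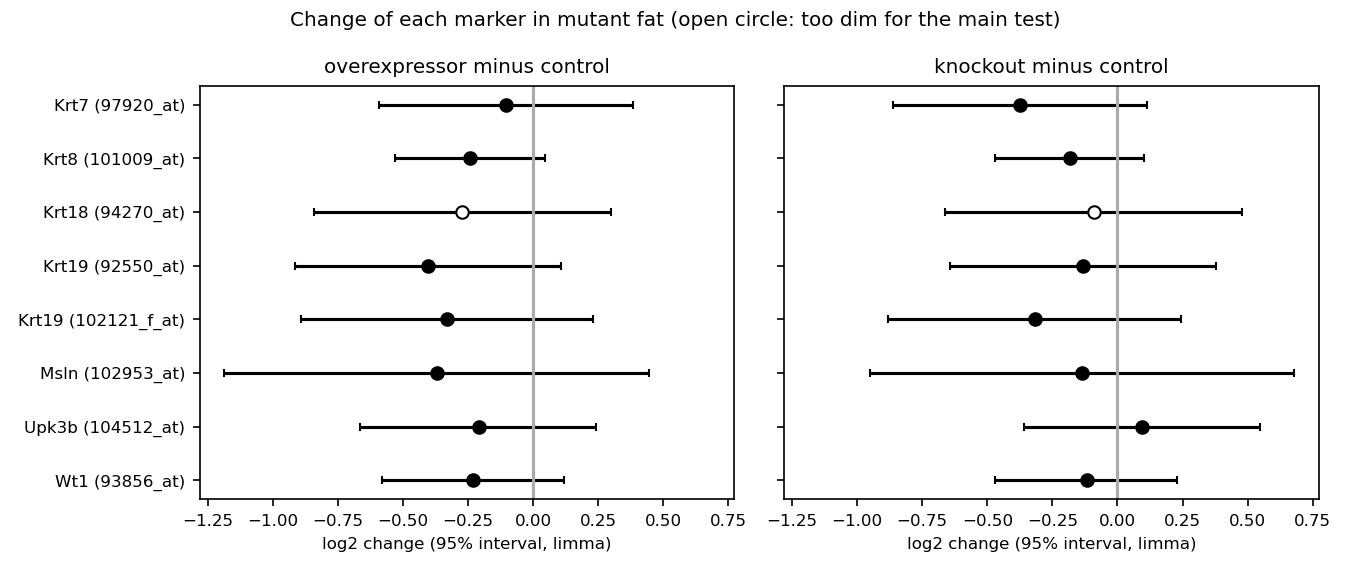
Log2 change of each marker probe set (mutant minus its control, x axis) with its 95% interval from limma, for the overexpressor line on the left and the knockout line on the right; the open circle is Krt18, too dim for the main test and taken from the fit of all probe sets. All 16 intervals include 0, and the widest are those of Msln.

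In the overexpressors all 7 tested marker probe sets lay lower, with a median log2 change of -0.24. Over all tested probe sets the median was -0.07, and 70.3% lay lower. With array medians subtracted, or with quantile normalization, all 7 were still lower, with medians of -0.18 and -0.17 against -0.01 and 0.01 over all probe sets. The direction rested on 1 control array. Without overexpressor control 1, 3 probe sets were lower and 4 higher, and the median was 0.0 against -0.05 over all. Without overexpressor control 3 all 7 were lower, with a median of -0.42 against -0.09 over all. Without overexpressor 1 all 7 were lower (median -0.23), while the share of all probe sets that lay lower was 56.6% and their median -0.02.

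In the knockouts 6 of 7 were lower, with a median of -0.14 against 0.04 over all tested probe sets, of which 37.0% lay lower. The same 6 of 7 count was found with array medians subtracted (median -0.17, all probe sets 0.01) and with quantile normalization (-0.19, all -0.01). Without knockout control 1 the count was 5 of 7 and the median -0.10. For the difference between both effects the median of the markers was -0.11 and that of all probe sets -0.12. Differences for single markers ran from -0.30 for Upk3b (95% interval -0.95 to 0.34) to 0.27 for Krt7 (95% interval -0.42 to 0.96). These intervals are wide, so no marker was shown to respond alike to gain and loss of Glut4.

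Overexpressor control 1 read highest of its line on all 8 marker probe sets above the floor, beside the 39.8% of all tested probe sets for which it did. Its value over the mean of the other 5 arrays was 3.17-fold for Msln, 2.11-fold and 1.70-fold for the Krt19 probe sets, 1.62-fold for Upk3b, 1.60-fold for Wt1, 1.41-fold for Krt7 and 1.37-fold for Krt8. Krt18 read 89.8 there and 43.0 to 51.1, near the floor, on the others. In the knockout line, knockout control 2 lay above the line mean on all 8 and was the highest array on 4, against 14.0% of all tested probe sets. There the excess was uneven, at 1.90-fold for Krt7, 1.62-fold for the second Krt19 probe set and 1.51-fold for Krt18 but 1.14-fold for Upk3b and 1.10-fold for Wt1. Summed over the 6 tested genes, intensity was 2655 to 3243 in overexpressors and 2767 to 5508 in their controls, and 2130 to 2704 in knockouts and 2061 to 2865 in theirs.

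**Figure D3:**
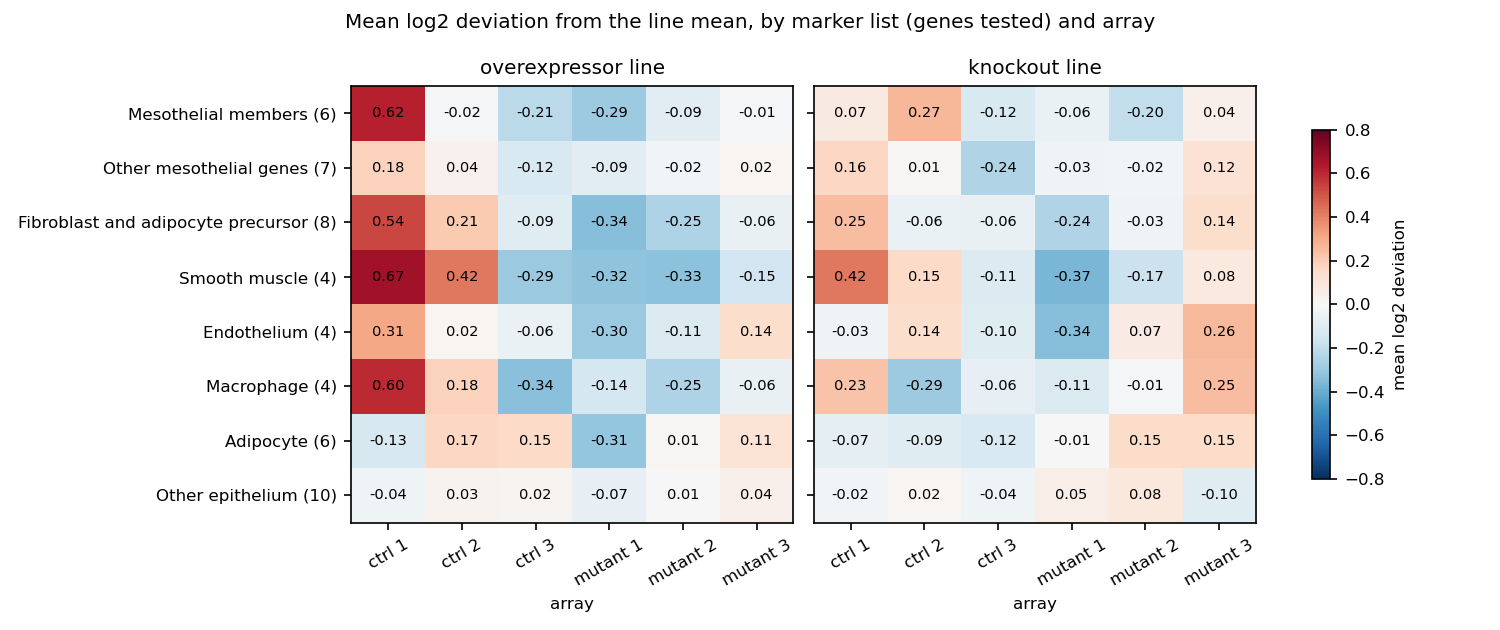
Mean log2 deviation from the mean of the 6 arrays of a line, for the tested genes of 8 marker lists (number of genes in brackets) on each array; red is above and blue below the line mean, and mutant stands for overexpressor at the left and knockout at the right. Overexpressor control 1 is at 0.62 for the mesothelial markers, with smooth muscle (0.67), macrophage (0.60) and fibroblast (0.54) genes also high and adipocyte (-0.13) and other epithelial (-0.04) genes not.

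Markers of other cells were read on the same arrays. On overexpressor control 1, 7 of 8 fibroblast and adipocyte precursor genes, 4 of 4 smooth muscle genes, 4 of 4 macrophage genes and 3 of 4 endothelial genes were at their line's highest, but 0 of 6 adipocyte genes and 1 of 10 genes of other epithelia. That array was the highest of its line in 39.8% of all tested probe sets. Summed smooth muscle intensity was 6030 to 6721 in overexpressors and 6148 to 11297 in their controls. The macrophage sum was 1932 to 2199 against 1833 to 3517, the fibroblast sum 11820 to 14403 against 13626 to 20372, and the endothelial sum 1560 to 2250 against 1914 to 2450. The adipocyte sum was 17206 to 22273 against 19339 to 22046. Their part in the marker values was not tested.

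The same lists were lower in the overexpressors in 8 of 8 fibroblast genes (median -0.49, with Dpt at -0.77, Col1a2 at -0.62 and Pdgfra at -0.40), 4 of 4 smooth muscle genes (-0.54), 4 of 4 macrophage genes (-0.30) and 4 of 4 endothelial genes (-0.18). Adipocyte genes had 4 of 6 lower (-0.06). In the knockouts the medians were -0.09 for fibroblast, -0.35 for smooth muscle, 0.07 for macrophage, 0.01 for endothelial and 0.15 for adipocyte genes. No gene of these lists was called by limma in either comparison. Over all tested probe sets 70.3% lay lower in the overexpressors (median -0.07) and 37.0% in the knockouts (median 0.04). On overexpressor control 1 the mean log2 deviation was 0.54 for fibroblast, 0.67 for smooth muscle, 0.60 for macrophage and 0.31 for endothelial genes. The changes of these lists were not taken without that array.

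Genes of other epithelia can hold keratins too, and so were read separately. In that list 10 of 17 genes on the array were tested, with medians of -0.02 in the overexpressors and 0.02 in the knockouts and none called. Its sum was 3753 to 4168 in overexpressors, 3808 to 4050 in their controls, 3709 to 3884 in knockouts and 3634 to 3677 in theirs. Epcam, the adhesion molecule of most epithelia but not of resting mesothelium, was named here after its values were seen. Too dim to test, it read 32.9, also near the floor, on overexpressor control 1. On all other arrays it read 21.9 to 22.4, at or next to the floor. Other keratins, plakins and desmosomal genes had 10 of 12 tested, with medians of -0.04 and 0.02, and overexpressor control 1 was highest on 2 of 10. The Krt10 probe set in the list of other epithelia was at the floor on all 6 arrays of the overexpressor line. It counts among the 10 tested genes of that list but could show no difference between those arrays. Another Krt10 probe set, too dim to test, read 84.5 to 168.5 in that line, with the highest value on overexpressor control 1. The part of other epithelial cells in the marker values was not tested.

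Perigonadal fat in females lies beside the ovary and oviduct, whose epithelia also express several of these keratins. The ovary and reproductive tract list had 8 of 12 genes tested, with medians of 0.01 in the overexpressors and -0.09 in the knockouts, and limma called none. Its sum was 1916 to 2192 over the overexpressor line, 2322 to 3624 in knockouts and 2599 to 3185 in their controls. Ovgp1, an oviduct glycoprotein, read 834 on knockout 1 and 122 to 185 on the other arrays of that line. On knockout 1, Krt7, Krt8, Krt18 and Wt1 had the highest values of the 3 knockouts (249, 146.5, 280.4 and 284), and Krt19, Msln and Upk3b did not. Knockout control 2, where Ovgp1 read 166, was higher than knockout 1 for Krt7 (396), Krt8 (164), Krt18 (316) and Wt1 (295). Without knockout 1 the knockout change of Krt7 was -0.52, and the part of Ovgp1-bearing tissue in the marker values was not tested.

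Other mesothelial genes gave a further reading. Of 20 listed, 10 were named on the array and 7 were tested. In the overexpressors 5 were lower and 2 higher (median -0.12), with Calb2, the calcium-binding protein calretinin, at -0.20, the protease inhibitor Slpi at -0.12 and Gpc3, a surface proteoglycan, at 0.11. In the knockouts 5 were higher and 2 lower (median 0.06), with Gpc3 at 0.30 (unadjusted p = 0.0341, limma adjusted p = 1), Slpi at -0.16 and Bnc1, a zinc finger protein, at -0.09. None of the 7 was called in either comparison. Over all tested probe sets, 70.3% lay lower in the overexpressors and 37.0% in the knockouts.

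Overexpressor control 1 was the highest array for 3 of these 7 genes, beside 39.8% of all tested probe sets. Pdpn, the surface mucin podoplanin, named here after its values were seen, read 395 there and 161 to 230.5 on the other arrays of the line. Summed intensity of the 7 was 2514 to 2649 in overexpressors, 2550 to 3010 in their controls, 2539 to 2601 in knockouts and 2432 to 2846 in theirs. In the overexpressor line the Slpi probe set that stood for the gene, the brightest of 4, ran against the other 3. Their means (± SD, n = 3 arrays) were 671 ± 73.4 in the overexpressors against 437.5 ± 159.1 in controls, 592 ± 15.4 against 558 ± 71.4, and 934 ± 48.6 against 865 ± 42.9. In the knockouts the probe set with a mean of 592 in the overexpressors was lower too (441.5 ± 10.4 against 461.9 ± 33.1). The others of these were higher there.

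How the markers varied together was described by correlation over the 6 arrays of a line, for the 15 pairs of the 6 tested genes. In the overexpressor line all 15 pairs were positive, with a median Pearson r of 0.82 (range 0.57 to 0.97). Over all tested probe sets overexpressor control 1 was the highest array of that line in 39.8% and overexpressor 1 the lowest in 48.4%. The same r was not taken for pairs of other genes in either line. Whether such counts of positive pairs are particular to the markers was thus not tested. Krt8 with Krt19 had r = 0.97 (exact permutation p = 0.0125, adjusted 0.125 over 30 pairs) and Spearman rho 0.94 (exact p = 0.0167, adjusted 0.25). Without overexpressor 1 and overexpressor control 1 that r was 0.62. Msln with Upk3b had r = 0.95 (exact permutation p = 0.00972, adjusted 0.125) and rho 0.83 (exact p = 0.0583, adjusted 0.292), and 0.425 without overexpressor controls 1 and 3. Both values were lower over the remaining 4 arrays, which were chosen as the nearest to the median. Leaving out the farthest arrays in this way turned r negative for Krt8 with Wt1 (-0.79), Upk3b (-0.71) and Msln (-0.32). It also did so for Wt1 with Krt7 (-0.41), Msln (-0.16) and Krt19 (-0.07), and the other pairs stayed positive. As deviations from group means the 15 pairs had a median r of 0.80, with 0.95 for both of these pairs. No pair passed after adjustment.

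In the knockout line 13 of 15 pairs were positive, with a median r of 0.41 (range -0.07 to 0.84), and 0.36 as deviations from group means. Msln with Upk3b was again high (r = 0.84, exact permutation p = 0.0292, adjusted 0.125; rho 0.83, exact p = 0.0583, adjusted 0.292), at 0.415 without knockout 3 and knockout control 2. Krt19 with Msln had r = 0.78 (exact permutation p = 0.0986, adjusted 0.211; rho 0.60, exact p = 0.242, adjusted 0.453), and 0.94 without knockout controls 1 and 3. Krt7 had r near 0 with these genes, with r = -0.05 for Krt19 (exact permutation p = 0.944), 0.03 for Msln (exact p = 0.949) and -0.07 for Upk3b (exact p = 0.867), each 0.949 after adjustment. The corresponding rho were -0.26 (exact p = 0.658), -0.20 (exact p = 0.714) and -0.37 (exact p = 0.497), and without knockout 3 and knockout control 2 the r were -0.72, -0.48 and -0.71. Between Krt7 and Krt8 r was 0.65 (exact permutation p = 0.165, adjusted 0.254; rho 0.71, exact p = 0.136, adjusted 0.34).

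**Figure D4:**
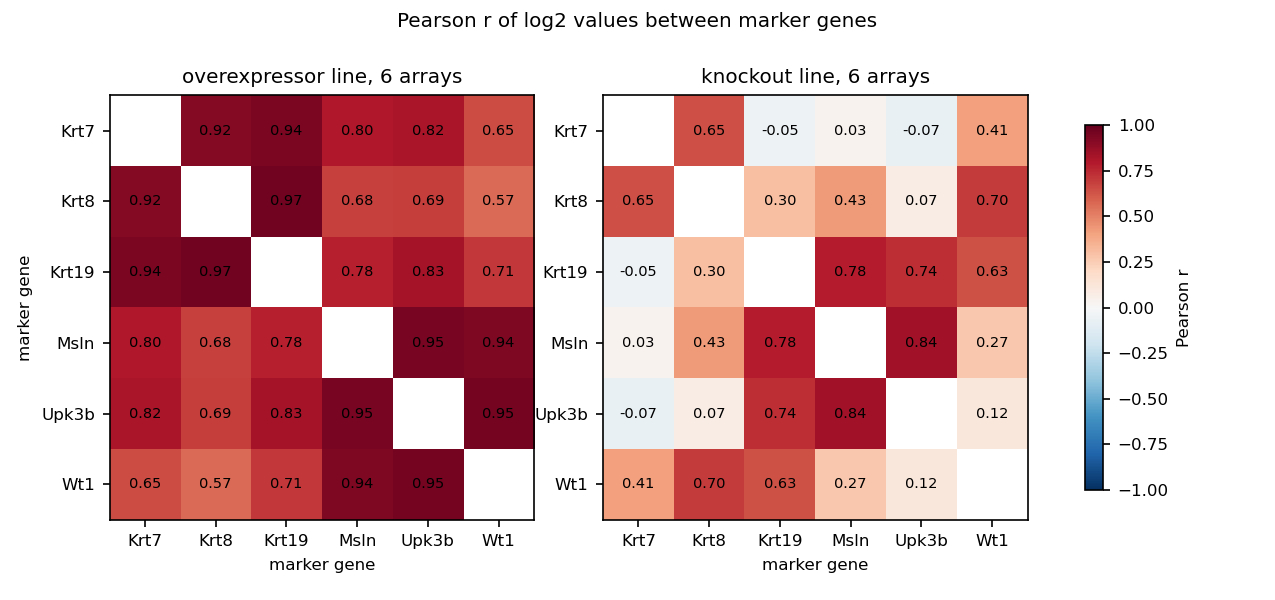
Pearson r of log2 values for each pair of the 6 tested marker genes over the 6 arrays of the overexpressor line (left) and of the knockout line (right), on a colour scale from -1 to 1. All 15 pairs are positive at the left, and at the right Krt7 stands near 0 with Krt19, Msln and Upk3b, which correlate with each other at 0.74 to 0.84. Pairs of other genes were not computed for comparison.

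Krt18 was added to these pairs after its values were seen, in a family of 12. In the knockout line it varied with Krt7 (r = 0.89, exact permutation p = 0.0236, adjusted 0.238; rho 0.89, exact p = 0.0333, adjusted 0.4), and r was 0.95 without knockout controls 1 and 2. With Krt8, its filament partner, r was 0.35 (exact permutation p = 0.542, adjusted 0.65; rho 0.49, exact p = 0.356, adjusted 0.876). With Krt19 it was -0.41 (exact permutation p = 0.392, adjusted 0.588; rho -0.26, exact p = 0.658, adjusted 0.876). In the overexpressor line r was 0.73 with Krt7 (exact permutation p = 0.139, adjusted 0.238; rho 0.14, exact p = 0.803, adjusted 0.876) and 0.77 with Krt8 (exact permutation p = 0.0917, adjusted 0.238; rho 0.54, exact p = 0.297, adjusted 0.876). No pair of this family passed after adjustment, and the differences between these correlations were not tested.

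The genes most like each marker were ranked by Pearson r over all 12 arrays, with each line centred on its own mean, among 5701 other tested genes. For Krt19 these were Timp1, an inhibitor of matrix metalloproteases, and Cnn3, an actin-binding calponin, both at 0.96, and Sh3gl1 at 0.95. For Msln they were Trim47 (0.96), Hp1bp3 (0.95) and the complement gene C2 (0.95), and for Upk3b Stx5a (0.96), Trim28 (0.96) and Tmx1 (0.955). For Wt1 they were Tbc1d14 (0.96), Adam19 (0.93) and Pdlim4 (0.92).

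Without overexpressor control 1 these values were 0.93, 0.94 and 0.92 for the genes like Krt19, 0.83 to 0.87 for those like Msln, 0.93 to 0.94 for those like Upk3b and 0.74 to 0.87 for those like Wt1. Ranks moved as well, to 6, 3 and 10 for Krt19 and to 32, 82 and 44 for Msln. They moved to 17, 8 and 13 for Upk3b and to 2, 41 and 38 for Wt1. The order thus depended in part on that array, most for Msln and for Adam19 and Pdlim4 with Wt1. The genes like Krt19 and Upk3b stayed close, at 0.92 to 0.94. The genes most like Krt7 were Sprr2b (0.90), of the small proline-rich proteins, Gstm1 (0.87) and Nop2 (0.84), with 0.91, 0.92 and 0.82 (ranks 2, 1 and 6) without that array. The genes most like Krt8 were Camp (0.85), which encodes the antimicrobial cathelicidin, Marveld1 (0.85) and Pspn (0.83), with 0.93, 0.75 and 0.76 (ranks 1, 15 and 11) without it. These are descriptions over arrays that share their line and brightness, with no test.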

How the data were processed

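RNA from perigonadal fat of 12 mice was read on 12 Affymetrix arrays. The deposited values are intensities on a linear scale, 1 per probe set and array. How the authors summarised and scaled the arrays was not stated in the labels or file used here. Sample titles set the groups, because controls and mutants of a line share 1 genotype value in the labels. Array medians ran from 185.8 to 219.4 and spanned 0.20 on the log2 scale, under the limit of 0.5 for normalizing again. Precision is limited by the number of arrays, which carry no read depth.

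Values were taken as log2(intensity + 36.92), the 10th percentile of the table, which understates changes of dim probe sets. The dimmest 40% by mean (4968 of 12422 probe sets) were left out, which kept 7454 for the test. A model of 4 group means was fitted by limma 3.58.1 under R 4.3.3, using lmFit and a trended eBayes (degrees of freedom 8 residual, 4.27 prior), and p-values were adjusted by Benjamini-Hochberg with a threshold of 0.05. The script was tested on simulated data. Exact permutation of 3 arrays against 3 has 0.1 as its smallest two-sided p and was not used for single genes. Correlations used numpy 2.4.6, with exact two-sided permutation p over pairings. Their ranks and Benjamini-Hochberg adjustment came from scipy 1.17.1. Figures used matplotlib 3.10.9, all in Python 3.11.15.

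By the platform annotation, 10833 probe sets had 1 gene symbol, 396 had several and 1193 had none; RefSeq (GRCm38.p6) gene IDs matched 10817 of those with 1. The members and lists were chosen with earlier results of these data known. The named genes are all members, up to 3 genes per list with the smallest p in a comparison plus any needed to show the opposite direction, any called, and the 3 most alike genes per member. Where a gene has several probe sets, the one with the highest mean stood for it in lists and correlations. Of the sex-linked list Xist was tested (0.02 in overexpressors and 0.84 in knockouts, neither called). Alternatives were other constants, filters, scalings, spread models, a replicate block and leaving out each array.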

Additional observations from a re-analysis of the deposited data

How the results depend on the processing

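No tested marker probe set was called under any alternative run, in 152 values per comparison, which do not include Krt18. The smallest limma adjusted p was 0.24 in the overexpressors and 0.376 in the knockouts, both with array weights, whose iteration did not converge. It was 0.283 and 0.751 otherwise. Signs turned in 5 of those values for the overexpressors and 4 for the knockouts. With array weights Krt7 was at 0.068 in the overexpressors and Upk3b at -0.065 in the knockouts. Leaving out single arrays gave, in the overexpressors, -0.19 to 0.03 for Krt7, -0.60 to 0.0 for the dimmer Krt19 probe set, -0.79 to 0.20 for Msln and -0.42 to 0.023 for Upk3b, and in the knockouts -0.37 to 0.021 for the brighter Krt19 probe set and -0.038 to 0.20 for Upk3b. Wt1 ran from -0.42 to -0.03 in the overexpressors. The marker median ran from -0.42 to 0.0 and from -0.26 to -0.085 without single arrays, and was -0.14 and -0.28 with array weights.

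Over all probe sets, limma's 6 calls in the overexpressors (2 higher, 4 lower) became 11 (6 and 5) with array medians subtracted, 12 (6 and 6) with quantile normalization, 1 on the line's own 6 arrays, 419 (182 and 237) with array weights, and 3 (without overexpressor control 2) to 21 (without overexpressor control 3). The 9 knockout calls became 14 with array weights and 6 to 11 without single arrays. The 12 calls of the difference became 1 when dim probe sets were kept, 43 under array weights and 1 to 13 without single arrays, with 1 without overexpressor 3 or knockout 3, 4 without knockout 2, 5 without knockout control 2 and 6 without knockout control 3. With the replicate number as a block (replicate block) there were 5, 0 and 1 calls. Residual correlations of mutant with control arrays were -0.35 to 0.02 for the same number and -0.20 to 0.41 otherwise. With 3 arrays a group these values cannot decide whether the numbers pair the mice. The cause of these shifts was not tested.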

Other observations

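Ltf, which encodes lactoferrin, a protein of uterine and other secretions, read 362 on knockout 1 and 672 on knockout control 3, against 68.2 to 95.3 on the other arrays of the knockout line. A second Ovgp1 probe set read 300.4 on knockout 1 and 21.9 to 30.4 on the other 11 arrays. Both genes were named here after their values were seen.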
